A study of Homo sapiens with 6 samples.

Results

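A set of 10 targets of the hypoxia response that lie outside glycolysis was described in HK2 cells: NDRG1, FUT11, BNIP3, BNIP3L, CA9, ANGPTL4, ADM, VEGFA, ANKRD37 and DDIT4. They are 10 of the 38100 genes in the tables, and all 10 were among the 17720 genes with enough counts for a test, ANGPTL4 through its AdSirt4 samples alone. The set was chosen by values of the comparison described here, since NDRG1, FUT11 and BNIP3L were higher and DDIT4 was lower in cells with more SIRT4. Their differences between the groups are therefore given as a description without a test.

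HK2 is an established, immortalised line from the epithelium of the human proximal tubule. One group received an adenovirus with an empty vector (AdCtrl), and the other an adenovirus that expresses SIRT4, a sirtuin of the mitochondria (AdSirt4), to find genes whose mRNA level differs with more SIRT4. All 6 samples, 3 per group, were wild type by their labels and were stimulated with TGF-β1. Neither unstimulated cells nor a low-oxygen treatment is among the labels. The labelled cell line carries another number in each sample, while every title names HK2. The study speaks of independent experiments in its methods and of technical replicates for its work in vitro elsewhere, so the spread between samples may be technical.

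Cells read a lack of oxygen through the hypoxia-inducible factors (HIF). Prolyl hydroxylases of the EGLN family mark the HIF α subunits when oxygen is present, the VHL protein then directs the marked subunit to degradation, and without the mark the subunit pairs with ARNT and binds DNA at the core letters ACGTG or GCGTG. Proximal tubule cells are among the cells of the kidney that consume the most oxygen, and HIF targets there cover glycolysis as well as growth control, mitophagy, pH balance and secreted vascular factors. The genes described here belong to the second kind.

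The promoter stretches with the letters ACGTG are shown because these letters are the core to which HIF binds and because the set holds genes with opposite differences. The reference covers 250 bases before and 50 bases after the start of each gene (RefSeq, GRCh38.p14), and a window was found for 7 of the 10 genes. NDRG1, BNIP3L and VEGFA had none in the table used. Both strands were searched, and CACGTG, which holds ACGTG on both strands, is also the E-box. The stretches are written 5′ to 3′ on the strand of the gene, with ACGTG or its reverse complement CACGT in capitals. They lie at chr10:73772222-73772263 for FUT11 (plus strand), chr10:131982034-131982075 for BNIP3 (minus strand), chr9:35673892-35673927 for CA9 (plus), chr19:8363905-8363943 for ANGPTL4 (plus), chr4:185396661-185396720 for ANKRD37 (plus) and chr10:72273781-72273821 for DDIT4 (plus).
FUT11: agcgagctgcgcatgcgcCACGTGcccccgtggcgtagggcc
BNIP3: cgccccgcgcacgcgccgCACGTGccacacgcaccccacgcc
CA9: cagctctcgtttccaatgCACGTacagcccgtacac
ANGPTL4: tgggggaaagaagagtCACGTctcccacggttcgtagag
ANKRD37: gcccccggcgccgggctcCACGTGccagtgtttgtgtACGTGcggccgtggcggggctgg
DDIT4: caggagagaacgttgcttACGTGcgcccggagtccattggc

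The letters ACGTG were present in 6 of the 7 windows and in 21.4% of the 35116 promoter windows of the reference. The window of ADM held GCGTG only, and ACGTG or GCGTG was present in all 7 windows and in 48.4% of the reference windows. The first capital stood 36 bases before the start in FUT11, 134 in BNIP3, 18 in CA9, 234 in ANGPTL4, 162 in ANKRD37 and 125 in DDIT4. DDIT4, which was lower in AdSirt4, thus shared the letters with genes that were higher. A match describes the letters alone and does not show that HIF bound there.

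The samples held between 41537353 and 85684748 counts. SIRT4 had 31 to 57 counts in the AdCtrl samples and 1996 to 7995 in the AdSirt4 samples (0.573 to 1.11 CPM against 51.2 to 92.7), and reads of the viral SIRT4 cannot be told apart from those of the cells' own gene. Tubular epithelial markers were present, with 13 of 19 above 1 CPM and a sum of 2330 to 2394 CPM in AdCtrl and 2242 to 2715 CPM in AdSirt4. Of the proximal tubule markers in that list, GGT1 stood at 210.2 to 247.2 CPM and SLC5A2 at 1.40 to 2.13 CPM over the samples, while SLC34A1, CUBN, LRP2, AQP1 and ANPEP were below 1 CPM in every sample. The cadherin gene CDH1 (E-cadherin) was also low, at 0.504 to 0.869 CPM, while CDH2 stood at 194.4 to 239.4 CPM. None of the 5 endothelial markers and 1 of the 5 immune markers (CD14) was above 1 CPM, with CD3E at 0 in every sample. Of the fibroblast and pericyte markers 2 of 5 were above 1 CPM (RGS5 and LUM), and that list summed to 724 to 798 CPM in AdCtrl and 658 to 824 CPM in AdSirt4. Most of this sum was RGS5, at 639.6 to 800.4 CPM over the samples. AdSirt4 replicate 1 stood apart. Its deviation from the group mean ran with gene length (Spearman's rho across genes -0.585, against 0.498 and 0.514 in replicates 2 and 3 and -0.177 to 0.171 in AdCtrl), so shorter genes tended to be higher in it. By the quasi-likelihood test of edgeR, with Benjamini-Hochberg adjustment, 2 of the 17720 genes passed at an adjusted p under 0.05 (0.0113%), SIRT4 and ADAMTS1. With the replicate number as a block SIRT4 alone passed, the edgeR adjusted p of ADAMTS1 being 0.0395 without the block and 0.303 with it, and without AdSirt4 replicate 1 the count was 1227 of 18287.

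Levels were compared between the 10 genes as FPKM, which is per gene length. In AdCtrl cells DDIT4 (83.2 ± 7.84 FPKM, mean ± SD, n = 3) and BNIP3 (74.1 ± 4.79) were the most abundant, and their samples overlapped. BNIP3L (24.6 ± 0.337) and NDRG1 (24.3 ± 0.707) came next and also overlapped, followed by VEGFA (14.3 ± 2.62). ADM (3.86 ± 0.551), FUT11 (1.94 ± 0.0340), ANKRD37 (0.793 ± 0.168), CA9 (0.433 ± 0.101) and ANGPTL4 (0.0499 ± 0.0179) followed, each with samples apart from the next. The set thus spans genes that tubular cells already expressed at a high level and genes close to the limit of detection.

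In AdSirt4 cells BNIP3 (118.1 ± 28.0 FPKM) stood above DDIT4 (60.1 ± 4.74), and NDRG1 (47.3 ± 2.08) stood above BNIP3L (33.8 ± 0.508), in both cases with no overlap between the samples of the pair. Both pairs of neighbours, which overlapped in AdCtrl, had therefore exchanged places in the order of mean levels. NDRG1, BNIP3L and DDIT4 were chosen by this comparison, so the exchange restates the choice and is no separate result. The other 6 genes held the same ranks in both groups, and CA9 (1.06 ± 0.361 FPKM) overlapped ANKRD37 (1.53 ± 0.411) in AdSirt4.

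**Figure D1:**
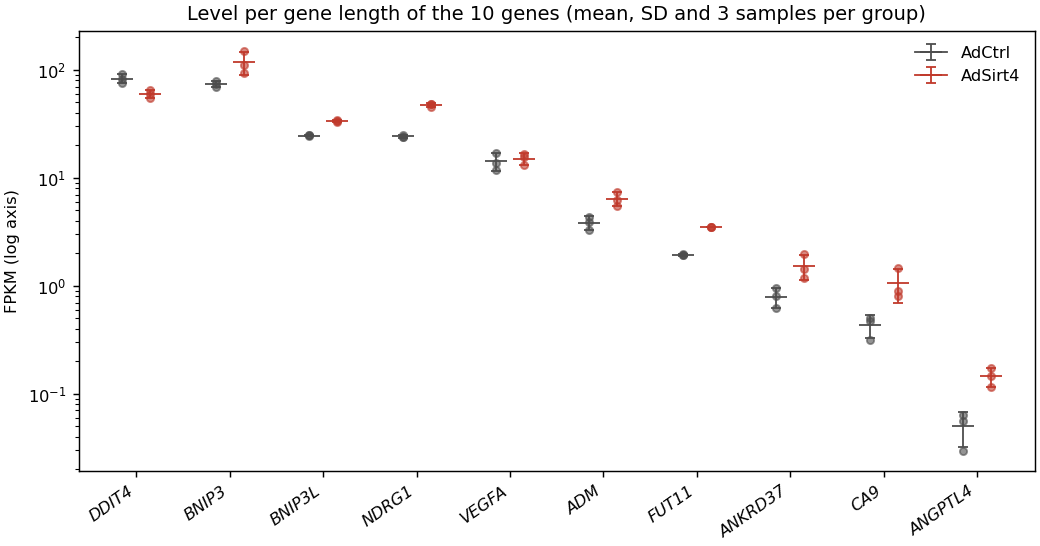
Level per gene length (FPKM, log axis) of the 10 genes in AdCtrl (grey) and AdSirt4 (red), ordered by the AdCtrl mean, with 3 sample points, the mean as a bar and the SD as error bars. DDIT4 is highest in AdCtrl (83.2 FPKM) and BNIP3 in AdSirt4 (118.1 FPKM), and ANGPTL4 is lowest in both groups.

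Between the groups, levels are given as CPM, the gene's counts scaled to library size by TMM. The log2 fold change sets AdSirt4 against AdCtrl and has its standard error from the fit over all genes tested. In the set 8 genes were higher in every AdSirt4 sample than in any AdCtrl sample, DDIT4 was lower in every one, and VEGFA overlapped. Among all genes tested, 9.66% were higher and 9.77% lower without overlap, but since the set was chosen by this comparison nothing is read from its counts. The median log2 fold change was 0.82 over the 10 genes and 0.021 over all genes, and without AdSirt4 replicate 1 these were 0.65 and -0.0028. A lower level in bulk RNA cannot be told apart from fewer cells that express the gene.

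NDRG1 encodes a cytoplasmic protein linked to differentiation and growth arrest, and is one of the most regular HIF targets across cell types. The gene (Entrez 10397) lies at chr8:133237175-133297252 on the minus strand. NDRG1 stood at 86.4, 84.5 and 78.8 CPM in AdCtrl replicates 1, 2 and 3 and at 180.8, 165.5 and 151.9 CPM in AdSirt4 replicates 1, 2 and 3. The groups were far apart, with every AdSirt4 sample well above the highest AdCtrl sample. The means were 83.2 ± 3.96 and 166.1 ± 14.4 CPM, a log2 fold change of 1.00 (SE 0.104) and a 1.99-fold difference. It was 0.93 without AdSirt4 replicate 1, and 0.99 once the trend of each library on gene length was taken out.

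FUT11 (Entrez 170384, chr10:73772276-73780254, plus strand, listed in RefSeq as POFUT4) encodes a fucosyltransferase of the secretory pathway. FUT11 stood at 5.12, 5.48 and 5.10 CPM in AdCtrl and at 10.4, 9.44 and 8.92 CPM in AdSirt4. Both groups were tight and did not overlap. The difference was 0.87 on the log2 scale (SE 0.115), or 1.83-fold. Per length the samples were even closer to each other, at 1.91 to 1.98 FPKM in AdCtrl and 3.47 to 3.52 FPKM in AdSirt4.

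BNIP3 and BNIP3L (also called NIX) encode related proteins of the outer mitochondrial membrane that act as receptors for the removal of mitochondria by autophagy. BNIP3 (Entrez 664, chr10:131967684-131981923, minus strand) stood at 139.0, 131.8 and 117.7 CPM in AdCtrl and at 282.3, 193.3 and 163.2 CPM in AdSirt4. The groups did not overlap, but AdSirt4 replicate 1 was 1.58 times the mean of replicates 2 and 3. The log2 fold change was 0.72 (SE 0.206) over all samples and 0.46 without that replicate, so this library carried much of the size of the difference. The annotation holds many processed pseudogenes of BNIP3 with which reads may be shared, which makes its level uncertain.

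BNIP3L (Entrez 665, chr8:26383054-26413127, plus strand) stood at 95.0, 99.6 and 93.7 CPM in AdCtrl and at 143.6, 134.1 and 128.7 CPM in AdSirt4. Here the AdSirt4 samples lay close together and above every AdCtrl sample. The means were 96.1 ± 3.08 and 135.5 ± 7.57 CPM, and the log2 fold change of 0.49 (SE 0.0908) was 0.45 without AdSirt4 replicate 1. Of the pair of receptors, BNIP3L thus had the smaller difference over all samples and the tighter one. Per length the ratio of BNIP3 to BNIP3L was 3.28, 2.97 and 2.82 in AdCtrl and 4.41, 3.23 and 2.85 in AdSirt4. In this ratio AdSirt4 replicates 2 and 3 lay within the AdCtrl range, and AdSirt4 replicate 1 lay above it.

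CA9 encodes carbonic anhydrase IX, an enzyme of the cell surface that helps cells to handle acid and that is scarce in most healthy tissues with oxygen. CA9 (Entrez 768, chr9:35673928-35681159, plus strand) had 31, 36 and 35 counts in AdCtrl and 109, 135 and 111 in AdSirt4. On the CPM scale it stood at 0.573, 0.847 and 0.681 in AdCtrl and at 2.80, 1.57 and 1.37 in AdSirt4. The groups did not overlap, and AdSirt4 replicate 1 was 1.91 times the mean of the other two. The log2 fold change was 1.43 (SE 0.337), and 1.07 without that replicate. The gene ARHGEF39 overlaps it on the opposite strand with a mean of 1036 counts, and whether counting used the strand is not given in the sources used here.

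The secreted factors of the set differed from each other. ADM encodes adrenomedullin, a vasodilator peptide. ADM (Entrez 133, chr11:10305073-10307397) stood at 6.66, 5.72 and 7.16 CPM in AdCtrl and at 13.7, 10.6 and 9.25 CPM in AdSirt4. All AdSirt4 samples were above all AdCtrl samples, with replicate 1 the highest. ADM thus had a log2 fold change of 0.77 (SE 0.174), and of 0.60 without AdSirt4 replicate 1.

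ANGPTL4 encodes an inhibitor of lipoprotein lipase that both HIF and the PPAR receptors induce. ANGPTL4 (Entrez 51129, chr19:8364155-8374370) had 8, 6 and 4 counts in AdCtrl and 16, 28 and 21 in AdSirt4. These are 0.148, 0.141 and 0.0779 CPM against 0.411, 0.325 and 0.258 CPM, close to the 0.0348 to 0.0770 CPM that a count of 0 still allows (3 counts, counting error only). The groups did not overlap, but so few counts give a loose estimate of the log2 fold change, 1.40 (SE 0.400), and 1.24 without AdSirt4 replicate 1. The gene passed the filter on low counts only through the group where it was higher, so it had to differ in this direction. The antisense gene RAB11B-AS1 overlaps ANGPTL4 with a mean of 41.8 counts, more than ANGPTL4 itself had in any sample.

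VEGFA encodes the main growth factor of blood vessels and is perhaps the best known of all HIF targets. VEGFA (Entrez 7422, chr6:43770211-43786487) stood at 54.7, 48.6 and 65.5 CPM in AdCtrl and at 56.2, 61.4 and 65.2 CPM in AdSirt4. The groups overlapped, and the highest sample of all was an AdCtrl sample. The log2 fold change was 0.12 (SE 0.132), with values from 0.019 to 0.24 when 1 sample was left out at a time. Per length VEGFA was 3.52, 3.64 and 3.91 times ADM in AdCtrl and 1.75, 2.48 and 3.00 times ADM in AdSirt4. These ratios did not overlap, so the pair of vascular factors stood closer together in every AdSirt4 sample.

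ANKRD37 encodes a small protein with ankyrin repeats whose gene is a direct HIF target. ANKRD37 (Entrez 353322, chr4:185396841-185400723) had 49, 51 and 39 counts in AdCtrl and 102, 123 and 137 in AdSirt4, which are 0.906, 1.20 and 0.759 CPM against 2.62, 1.43 and 1.69 CPM. The groups did not overlap, and AdSirt4 replicate 1 was 1.68 times the mean of the other two. The log2 fold change was 0.99 (SE 0.303) and 0.71 without that replicate. UFSP2, on the opposite strand, overlaps ANKRD37 and had a mean of 873 counts.

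DDIT4 encodes REDD1, an inhibitor of the growth kinase mTORC1. HIF, glucocorticoids and ATF4, the factor of the integrated stress response, all induce it. DDIT4 (Entrez 54541, chr10:72273924-72276036) stood at 162.1, 155.4 and 175.2 CPM in AdCtrl and at 128.8, 109.6 and 126.9 CPM in AdSirt4. It was the only one of the 10 genes that was lower in every AdSirt4 sample than in any AdCtrl sample. The means were 164.3 ± 10.1 and 121.8 ± 10.6 CPM, and the log2 fold change was -0.43 (SE 0.106). It was -0.48 without AdSirt4 replicate 1 and -0.50 with the trend on gene length removed.

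**Figure D2:**
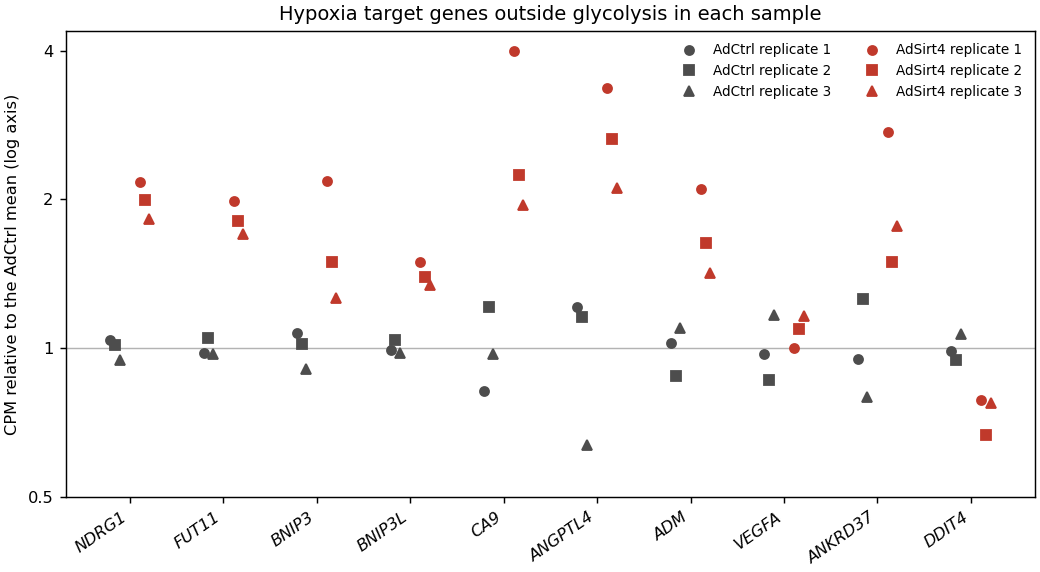
CPM of each gene in each sample divided by the mean of the 3 AdCtrl samples (log axis), with AdCtrl in grey, AdSirt4 in red and the replicate number as the marker shape. All red points lie above the grey ones for 8 genes and below them for DDIT4, the groups overlap for VEGFA, and AdSirt4 replicate 1 (red circle) is the highest AdSirt4 sample for 9 genes.

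Set side by side within each sample, NDRG1 and DDIT4 restate the values by which the set was chosen. The FPKM of NDRG1 were 0.308, 0.314 and 0.260 times those of DDIT4 in AdCtrl and 0.812, 0.872 and 0.692 times in AdSirt4. Among the tested genes, FUT11 (Pearson's r 0.996), BNIP3L (0.994) and DKK1 (0.994), an inhibitor of Wnt signaling, had the log2 CPM most like that of NDRG1 over the 6 samples. The genes most like DDIT4 were PRRT1B (0.994), LOC105377276 (0.993) and the sialyltransferase gene ST6GALNAC4 (0.992). With 6 samples in 2 groups such values mostly follow the difference between the groups, and 128 genes had r above 0.95 with NDRG1 and 59 with DDIT4.

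AdSirt4 replicate 1 was the highest AdSirt4 sample for 9 of the 10 genes, VEGFA being the exception. It was 1.37 to 1.91 times the mean of replicates 2 and 3 for BNIP3, CA9, ANKRD37, ANGPTL4 and ADM, and 1.09 to 1.14 times for NDRG1, FUT11, BNIP3L and DDIT4. The 4 genes on which the set was selected were thus among those in which this library stood closest to the others. The lengths implied for the 10 genes, 1225 to 3988 bases, were not long. Without the trend on gene length the log2 fold changes of BNIP3, CA9 and ANKRD37 were 0.60, 1.31 and 0.85.

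**Figure D3:**
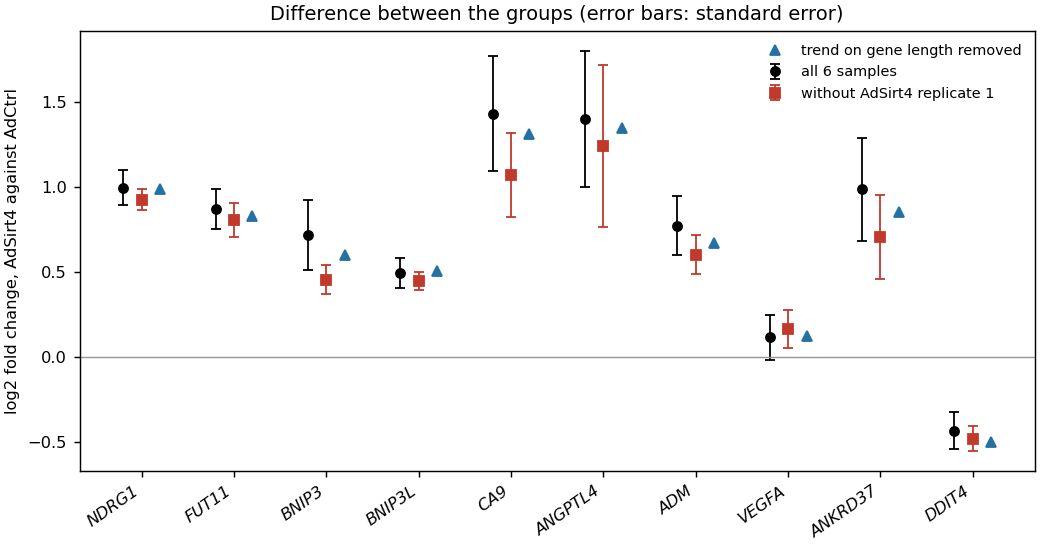
Log2 fold change (AdSirt4 against AdCtrl) for each gene over all 6 samples (black circles, SE as error bars), without AdSirt4 replicate 1 (red squares, SE) and with the trend on gene length taken out of each library (blue triangles, no error bar). No gene changes direction among these 3 values, and the gap between black and red is widest for CA9 (1.43 and 1.07), ANKRD37 (0.99 and 0.71) and BNIP3 (0.72 and 0.46).

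Genes around the set were examined by lists written from general knowledge, in the same edgeR fit with adjustment over all 17720 genes. No gene of the 9 lists passed at an adjusted p under 0.05 with all 6 samples, the lowest adjusted p being 0.239. Counts are therefore also given at an unadjusted p under 0.05, where 4.43% of all genes were higher and 3.50% lower in AdSirt4. They are given by DESeq2 too, which called 124 higher and 82 lower among the 17720 genes. Without AdSirt4 replicate 1, 3.37% of all genes were higher and 3.34% lower at an adjusted p under 0.05 by edgeR. Among all genes tested, 9.66% were higher and 9.77% lower without overlap between the groups. These lists were not used to choose the set, but were written with earlier results known.

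The HIF machinery as 1 list showed no common direction, but its tested subunit genes all lay below 0 over the 6 samples. The log2 fold changes were -0.33 for HIF1A, -0.25 for EPAS1 and -0.29 for ARNT, and ARNT2 was also below 0. EGLN1 (0.44), EGLN3 (0.53), VHL (0.23), EGLN2 and CITED2 were above 0, and HIF1AN was below 0. Without AdSirt4 replicate 1 the signs of ARNT2, EGLN2 and HIF1AN were reversed. This split was seen after the values were known and was not tested. Of 10 tested genes 5 had a log2 fold change above 0 and 5 below 0, the median was -0.010, and at an unadjusted p under 0.05, 2 were higher (EGLN1 and EGLN3) and 1 lower (HIF1A). With the replicate block HIF1A was no longer past this threshold. HIF1A, the oxygen-regulated subunit itself, stood at 897.0 ± 53.3 CPM in AdCtrl and at 712.4 ± 83.6 CPM in AdSirt4, without overlap. Its log2 fold change of -0.33 (SE 0.132) had an adjusted p of 0.612, with 0.0366 to 0.971 over the alternatives and 0.0366 without AdSirt4 replicate 1. EGLN1, the prolyl hydroxylase PHD2 and itself a HIF target, stood at 79.1 ± 1.36 and 107.0 ± 6.66 CPM without overlap. Its log2 fold change of 0.44 (SE 0.0896) had an adjusted p of 0.489, with 0.000875 to 0.971 over the alternatives, and DESeq2 called it at an adjusted p under 0.05.

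The other parts of the machinery differed less clearly. EPAS1, which encodes HIF-2α, stood at 459.1 ± 27.6 and 386.7 ± 73.9 CPM in overlapping groups. ARNT, the shared partner subunit, had 54.6 ± 1.27 and 44.6 ± 10.4 CPM without overlap, and AdSirt4 replicate 1 was the lowest of its samples at 32.6 CPM. EGLN3, a hydroxylase and HIF target, stood at 6.77 ± 0.524 and 9.81 ± 2.73 CPM with overlap, and the log2 fold change of VHL was 0.23 (SE 0.143), also with overlap. In the fit without AdSirt4 replicate 1 only EGLN1 (higher) and HIF1A (lower) passed among the 10 genes.

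Other HIF targets outside glycolysis leaned higher in AdSirt4. Of 32 tested genes 26 had a log2 fold change above 0, the median was 0.26, and 13 were higher and none lower at an unadjusted p under 0.05. In 16 genes all AdSirt4 samples were higher than all AdCtrl samples, and in 1 gene, the lysyl hydroxylase PLOD1, all were lower. DESeq2 called 7 genes, all higher, and edgeR without AdSirt4 replicate 1 called 14, all higher, with a list median of 0.25. The 14 include the histone demethylases KDM3A and KDM4B, the collagen hydroxylases P4HA1, P4HA2 and PLOD2, and the clock repressor BHLHE40. SPAG4, a gene of the nuclear envelope, stood at 7.36 ± 0.458 CPM in AdCtrl and at 12.1 ± 2.05 CPM in AdSirt4. BHLHE40 stood at 90.0 ± 7.93 and 124.4 ± 8.33 CPM, and PPFIA4 at 13.1 ± 0.551 and 20.3 ± 3.45 CPM.

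The glycolytic HIF targets had about the same median, 0.27 over 21 genes. Over all 6 samples 20 of them were above 0, PDK3 being the exception. Without AdSirt4 replicate 1, PDK3 was above 0 (log2 fold change 0.10) and GAPDH was below 0 (-0.018). With all 6 samples, 7 were higher and none lower at an unadjusted p under 0.05, and 10 were higher without overlap. PFKFB3 and PFKFB4, which make the activator of glycolytic phosphofructokinase, had log2 fold changes of 0.85 (SE 0.137) and 0.78 (SE 0.106). PDK1, a kinase that inhibits pyruvate dehydrogenase, had 0.62 (SE 0.0884), from 32.3 ± 0.133 to 49.8 ± 2.71 CPM. Per length, as log2(FPKM + 0.1), the difference of PDK1 was smaller and looser, at 0.37 (SE 0.164). The adjusted p of PFKFB4 was 0.239, with 3.64e-07 to 0.971 over the alternatives. DESeq2 called PDK1, PFKFB3, PFKFB4 and SLC2A1, and edgeR without AdSirt4 replicate 1 called 7 genes, the same 4 with HK2, PGK1 and LDHA, where HK2 is the hexokinase gene. The median was 0.18 in that fit.

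Around BNIP3 and BNIP3L, the other mitophagy genes had a median of 0.092 over 19 tested genes, 11 above and 8 below 0. At an unadjusted p under 0.05, 2 were higher (SQSTM1 and MUL1) and none lower, and with the replicate block 1 was higher (MUL1). The adaptor SQSTM1 (p62) stood at 370.6 ± 16.4 and 460.8 ± 54.7 CPM, the ubiquitin ligase MUL1 at 33.9 ± 1.83 and 40.6 ± 1.40 CPM, and MAP1LC3B, which encodes a protein of the autophagosome membrane, at 68.9 ± 4.15 and 83.7 ± 11.1 CPM, each without overlap. Without AdSirt4 replicate 1 the median was -0.035, and SQSTM1 alone passed (log2 fold change 0.21, adjusted p 0.0480 by edgeR, 0.0480 to 0.971 over the alternatives). DESeq2 called none of the list. The log2 fold changes of the list ran up to 0.39, in GABARAPL2, and are not set against BNIP3 and BNIP3L, since BNIP3L was chosen for its difference.

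Around DDIT4, genes of mTORC1 and its control leaned lower. Of 17 tested genes 13 had a log2 fold change below 0, the median was -0.11, and 3 were lower and none higher at an unadjusted p under 0.05. These were the sestrins SESN2 (80.7 ± 4.95 to 52.8 ± 11.2 CPM) and SESN3 (1.06 ± 0.0276 to 0.564 ± 0.110 CPM) and DEPTOR (13.3 ± 0.825 to 9.80 ± 1.20 CPM), all of them inhibitors of mTORC1 like DDIT4, and none of the 3 overlapped between groups. They do not stand for inhibitors as a class. SESN1 (log2 fold change -0.15) was also lower without overlap, but TSC1 (-0.048), TSC2 (-0.14), DDIT4L (-0.032) and TXNIP (0.22) overlapped. MTOR (-0.29) and RPTOR (-0.25), of mTORC1 itself, were below 0 with overlap. Without AdSirt4 replicate 1 the median was -0.033, and SESN2 and DEPTOR passed, both lower. DESeq2 called none.

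Of the genes induced by glucocorticoids, as DDIT4 is, 7 were above and 7 below 0, with a median of -0.0089. At an unadjusted p under 0.05, 4 were higher (DUSP1, CRISPLD2, MT2A and NFKBIA) and 3 lower (TSC22D3, FKBP5 and BIRC3). TSC22D3, which encodes the glucocorticoid-induced leucine zipper GILZ, stood at 184.1 ± 12.7 CPM in AdCtrl and 124.3 ± 31.9 CPM in AdSirt4. Its log2 fold change was -0.57 (SE 0.183, edgeR adjusted p 0.553, 0.000225 to 0.971 over the alternatives). DUSP1, a phosphatase of MAP kinases, stood at 75.2 ± 4.62 and 113.9 ± 25.2 CPM, and NFKBIA, the NF-κB inhibitor, at 83.2 ± 5.47 and 113.9 ± 21.2 CPM. The list thus pointed both ways, and in the fit without AdSirt4 replicate 1 it had 4 higher genes (CRISPLD2, MT2A, ERRFI1 and NFKBIA) and 2 lower (TSC22D3 and CEBPD).

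ATF4 targets, which share the stress input of DDIT4, were lower in the larger part. The list counts ATF4 itself, whose groups overlapped. Its log2 fold change was 0.11 over all 6 samples and -0.088 without AdSirt4 replicate 1. Whether ATF4 input bears on the level of DDIT4 was not tested. Of 17 genes 12 had a log2 fold change below 0, the median was -0.28, and at an unadjusted p under 0.05, 5 were lower (TRIB3, ASNS, PSAT1, SESN2 and CTH) and 2 higher (ATF3 and ATF5). CTH, of cysteine synthesis, stood at 16.7 ± 2.56 and 10.7 ± 1.43 CPM, and PSAT1, of serine synthesis, at 107.8 ± 8.48 and 82.9 ± 2.29 CPM, and these were the genes that DESeq2 called. SESN2, counted above, is also in this list, as is STC2, which was counted among the other hypoxia targets. Without AdSirt4 replicate 1 the median was -0.33, with 6 lower genes (PSAT1, PHGDH, SESN2, VLDLR, CEBPB and CTH) and 2 higher (ATF3 and STC2).

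Partners of the secreted factors leaned lower in AdSirt4. Of 18 genes 13 were tested, since VEGFD, the VEGF receptors FLT1 and KDR, and RAMP1 and RAMP3, which shape the adrenomedullin receptor, had too few counts. Of the 13, 10 had a log2 fold change below 0, the median was -0.11, and 1 was lower at an unadjusted p under 0.05. This was PDK4, a PPAR target as ANGPTL4 is, at 29.5, 21.3 and 21.9 CPM in AdCtrl and 14.1, 15.2 and 13.7 CPM in AdSirt4. Its log2 fold change of -0.76 (SE 0.147) had an edgeR adjusted p of 0.469, with 0.00321 to 0.971 over the alternatives, and it passed without AdSirt4 replicate 1 and by DESeq2. PLIN2, another PPAR target, stood at 65.5 ± 4.02 and 82.6 ± 17.9 CPM with overlap, and PPARD itself at 32.0 ± 1.08 and 26.4 ± 4.00 CPM. With the replicate block PLIN2 was past the unadjusted threshold too, so that 1 gene was lower and 1 higher.

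Relatives of NDRG1, FUT11, CA9 and ANGPTL4 had a median of -0.053 over 16 tested genes, 7 above and 9 below 0, and 2 were lower (FUT10 and FUT1) and none higher at an unadjusted p under 0.05. FUT10, a fucosyltransferase gene related to FUT11, stood at 14.4 ± 0.713 CPM in AdCtrl and 11.5 ± 1.22 CPM in AdSirt4. FUT1 was at 0.407, 0.400 and 0.584 CPM in AdCtrl and at 0.0770, 0.0348 and 0.295 CPM in AdSirt4, where replicates 1 and 2 held 3 counts each. It passed the filter on low counts only through AdCtrl, where it was higher, so its place among the lower genes is no support for a direction. With the replicate block CA5B was past the unadjusted threshold as well, so that 2 were lower and 1 higher. CA5B, a mitochondrial carbonic anhydrase, stood at 10.2 ± 1.23 and 13.7 ± 3.24 CPM without overlap. No relative passed without AdSirt4 replicate 1 or by DESeq2, and the median was 0.024 without that replicate.

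**Figure D4:**
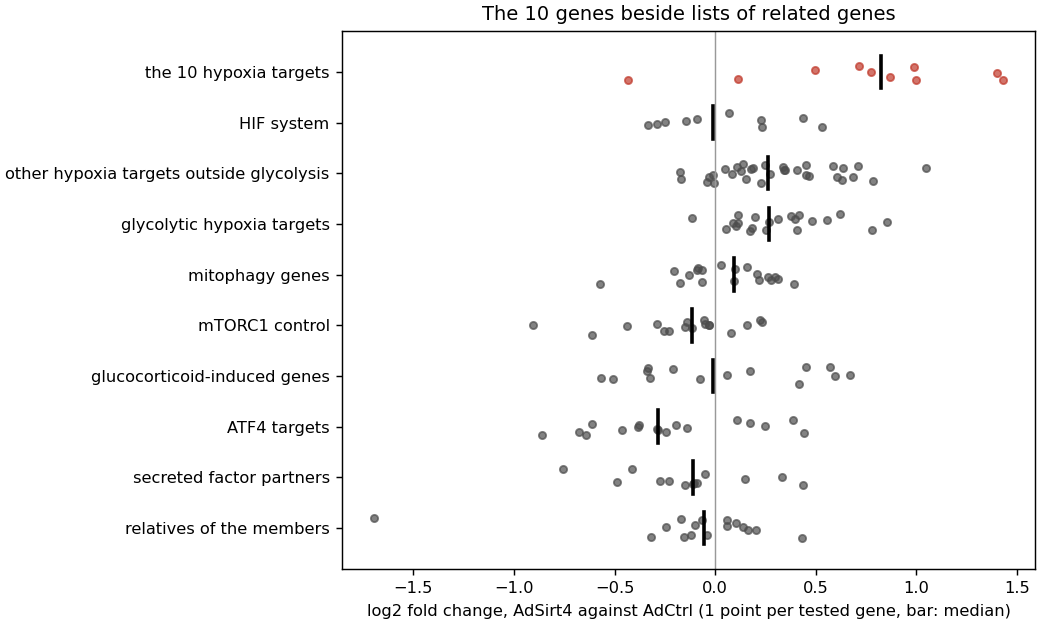
Log2 fold change (AdSirt4 against AdCtrl) for the 10 genes (red) and for the tested genes of 9 related lists (grey), with the median of each list as a black bar. The 10 genes were chosen by this difference and have a median of 0.82. The medians of the other lists run from -0.28 (ATF4 targets) to 0.27 (glycolytic targets).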

How the data were processed

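RNA was sequenced from 6 samples of HK2 cells, grouped as AdCtrl and AdSirt4 by their titles. The authors deposited whole-number counts per gene, not normalized, and a second table whose unit is not named and was read as FPKM, since for 12044 of the 19099 genes with a length implied by both tables that length agreed within 5% across samples. The submitters' processing notes name fastp 0.21.0, HISAT2 2.1.0, StringTie 2.1.5, DESeq2 1.30.1 and hg38, without their roles, and the counting program and its use of strand are not given in the sources used here.

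Counts were compared with edgeR 4.0.16 in R 4.3.3 (filterByExpr with a minimum count of 10, TMM scaling, robust quasi-likelihood test, Benjamini-Hochberg adjustment over 17720 genes, threshold 0.05). Alternatives were DESeq2 1.42.0, RLE scaling, other filters, limma 3.58.1 on log2(FPKM + 1) and log2(FPKM + 0.1), the replicate number as a block, removal of each library's trend on gene length, and each sample left out. Fits were tested on simulated data. Tables and plots were made with Python 3.11.15, pandas 2.3.3 and matplotlib 3.10.9.

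Deviations from the group means correlated at 0.178, 0.159 and 0.176 across genes between samples of the same replicate number. Between others they correlated at -0.188 to 0.0298, so in the fits with a block the numbers were taken to pair the samples. This rests on the data, since the labels give the number alone. The main fit has no block, so values given without mention of the block ignore the pairing. Trends on gene length had the same sign in both samples numbered 1 and both numbered 3, but not in those numbered 2. Whether these trends account for the correlations was not tested. No replicate was a copy of another (chi-square per gene 9.97 to 236.7). Total counts were 53677241, 42102861 and 50190728 in AdCtrl replicates 1 to 3 and 41537353, 85684748 and 80040053 in AdSirt4 replicates 1 to 3, and 3 counts are 0.0555, 0.0706, 0.0584, 0.0770, 0.0348 and 0.0369 CPM in the same order.

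The 10 genes and all lists were chosen with earlier results of these data known. Besides the 10 genes, those named with values are 6 genes of the HIF machinery, from each list the genes with an adjusted p under 0.05 and otherwise the 3 with the smallest p, and the 3 most like NDRG1 and DDIT4 by correlation of log2(CPM + 0.1). Genes named without values make up the small counts beside them or passed in an alternative, and were chosen after their values were seen. The 7 mitochondrially encoded genes meant to show RNA quality were not analysed here. Some genes of the lists are not reported here by name.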

Additional observations from a re-analysis of the deposited data

How the results depend on the processing

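All 10 genes kept their direction in every fit that could be made, and of 167 values 156 moved by less than the spread between replicates; the 11 others came from FUT11, CA9, ANGPTL4 and ANKRD37 on log2(FPKM + pseudocount) scales, which understate the change of low genes. ANGPTL4 was not tested with at least 10 counts required in every sample. The count of genes at an adjusted p under 0.05, 2 with edgeR, was 206 with DESeq2, 5 with all genes of at least 1 count, 4 with at least 10 counts in every sample, 0 with limma on log2(FPKM + 1) (1643 at an unadjusted p under 0.05), 1 on log2(FPKM + 0.1), 5 among genes whose mean FPKM reached 1, and 12 with the length trend removed. With the replicate block it was 1 in edgeR (ADAMTS1 was lost), 0 in limma (1440 unadjusted) and 6 with the length trend removed. At an unadjusted p under 0.05 the block took HIF1A, SQSTM1, FKBP5, HILPDA and PLOD2 out of the list counts and added CHAC1, SLC7A11, KLF9, RORA, CA5B and PLIN2. At an adjusted p under 0.05 no listed gene passed in the main fit, so the block had no call to take away, and it added none. With the length trend removed, PPFIA4 (edgeR adjusted p 0.0318) and PFKFB3 (0.0255) passed without the block. With the block they did not (0.115 and 0.0800). Leaving out 1 sample gave 0 to 1227. The median of the HIF machinery was 0.066 with all genes of at least 1 count. That of the other hypoxia targets was 0.16 on log2(FPKM + 1) with or without the block, 0.20 on log2(FPKM + 0.1) and 0.20 after the filter on mean FPKM. With 1 sample left out, medians ran from 0.23 to 0.29 for the other hypoxia targets, from 0.18 to 0.31 for glycolytic targets, from -0.035 to 0.16 for mitophagy genes, from -0.17 to -0.11 for partners of secreted factors and from -0.085 to 0.024 for relatives. Why these values moved was not tested. Among the 29 other named genes 28 of 490 values newly passed the threshold, and 16 of these did so without AdSirt4 replicate 1. Depth limits ANGPTL4 most, at 4 to 28 counts.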
